A study of Mus musculus with 3 samples.

Results

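The inner root sheath keratins are the keratins that fill the cells of the tube around a growing hair, and 8 mouse genes were taken under that name: the type I genes Krt25, Krt26, Krt27 and Krt28 and the type II genes Krt71, Krt72, Krt73 and Krt74. They were chosen by name, and their UniGene clusters were found in the deposited tables by the description or by exact match of the tags to reference transcripts. Of the 8 genes 7 had a cluster, 1 cluster each, among 20595 clusters listed in any table, of which 16041 could be given a gene symbol. Every skin came from male C57BL/6 mice aged 2 months whose hair had been removed, which starts a new growth phase in every follicle. The drug was injected 9 days after hair removal. The day 0 library came from skin without drug, and the day 1 and day 2 libraries from skin taken 1 and 2 days after an intraperitoneal dose of 150 mg/kg cyclophosphamide, an alkylating drug that damages growing hair follicles. Each day had 1 library, the sources used here do not give the number of mice behind a library, and drug-treated skin was also 1 or 2 days further into hair growth with no untreated skin of those days.

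Keratins are built as pairs. A type I (acidic) chain joins a type II (basic) chain, and the pairs polymerise into the filaments that stiffen the cell. The inner root sheath consists of the Henle layer, the Huxley layer and a cuticle that interlocks with the cuticle of the shaft; it hardens before the shaft does, guides it upwards and is shed near the skin surface. In human follicles the proteins of the genes KRT25, KRT27, KRT28 and KRT71 occur in all layers of the sheath, those of KRT26, KRT72 and KRT73 in its cuticle and that of KRT74 in the Huxley layer. Mutations of Krt71 and Krt25 give mice with wavy coats, named Caracul and Rex.

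The assay counted tags of 21 bases, each made of the recognition site CATG of the enzyme NlaIII and the 17 bases after it. A transcript is cut at many CATG sites, but only the fragment on the oligo(dT) bead should give a tag, so each transcript gives 1 tag whatever its length, and tag counts can be set side by side between genes whose 3′-most sites were counted, which leaves out Krt72 (below). The 7 clusters could be told apart because their leading tags, those with the most copies, each occurred in transcripts of 1 reference gene. The leading tags are shown because every level below rests on them. Capitals mark the CATG site, and the sequences run 5′ to 3′ along the transcript.
Krt25: CATGcaatgtgtctgggaaat
Krt26: CATGcttttcttcccgtgtca
Krt27: CATGaaacactctctggagtg
Krt28: CATGctagggggatagagtaa
Krt71: CATGtggtgcacttctgacag
Krt72: CATGgagatcgccacctacag
Krt73: CATGgatcaagcacctggcac

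All 8 genes lie on the minus strand of GRCm38 in the keratin gene blocks of chromosomes 11 and 15. The type I genes stand in the order Krt25, Krt26, Krt27 and Krt28 within chr11:99315516-99374903, and the type II genes Krt71, Krt74, Krt72 and Krt73 within chr15:101733949-101802346. The leading tags of Krt25 (chr11:99316033-99316053), Krt26 (chr11:99328833-99328853) and Krt28 (chr11:99365018-99365038) lay in the 3′ UTR in exon 8 of 8. Those of Krt71 (chr15:101734320-101734340) and Krt73 (chr15:101793433-101793453) lay in the 3′ UTR in exon 9 of 9. The leading tag of Krt27 crossed the junction of exons 5 and 6 of 8 in the coding sequence, 560 bases from the transcript end, since no CATG follows it in that transcript. The leading tag of Krt72 (chr15:101778200-101778220) lay in coding exon 7 of 9. The cluster sequence that the deposited table used for Krt72 was 1563 bases long and ended with the coding sequence, against 1953 bases of the annotated transcript. Its leading tag was therefore the third site from the transcript end, the tags of the final pair of sites were in no table, and the Krt72 level counts upstream sites only. Its level is therefore a partial count that cannot be ranked against the others.

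Krt74, which human hair follicles use in the Huxley layer, is annotated in GENCODE M21 as a transcribed unitary pseudogene in the mouse (chr15:101754259-101763504). None of the tags at its CATG sites was in any of the 3 tables. A tag with fewer than 2 copies was not listed. The tables also held only tags assigned to clusters, 45.3%, 47.1% and 46.5% of those the authors kept on days 0, 1 and 2. Krt74 had no cluster, so its tags could be missing at any copy number. Its level was therefore not measured.

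The genes are close relatives, and a tag from an exon they share shows how close the assay came to mixing them. The tags below start at matching CATG sites of exon 4 in the type I genes and of exon 7 in the type II genes.
Krt25: CATGagagctgagtatgaggc
Krt27: CATGagagccgagtacgaggc
Krt28: CATGcgagcagagtacgaggc
Krt26: CATGagggccgaatatgaaga
Krt71: CATGgagatcgccacctaccg
Krt72: CATGgagatcgccacctacag
Counted from 1 at the 5′ end of the tag, the Krt25 and Krt27 tags differ by T10C and T16C, and the Krt27 and Krt28 tags by A5C and C10A. The Krt71 and Krt72 tags differ by C20A alone, so 1 misread base would turn the Krt71 tag into the Krt72 tag. At this site Krt71 had 982, 1478 and 530 tags on days 0, 1 and 2, and Krt72 had 105, 223 and 90. The most frequent variant with 1 changed base of any keratin leading tag reached 0.624% of that tag. At that share the Krt71 site would give 6.13, 9.23 and 3.31 tags, far below the Krt72 counts. The site 5 tag of Krt73 also occurs in Krt79, a keratin of the sebaceous duct, and its 76, 79 and 98 copies made up 2.27%, 1.64% and 4.73% of the Krt73 count.

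The stretches before the gene starts were read from RefSeq (GRCm38.p6) for the 7 genes measured. They were searched on both strands, in a window from 250 bases before to 50 bases after the start, for 4 short motifs. TATAAA, the TATA box, occurred in 7 of 7 windows, against 13.6% of 32851 windows of all genes. It began 30 bases before the start in Krt25, Krt26, Krt28 and Krt73, 40 before it in Krt71 and 15 before it in Krt27. In Krt72 it was found only on the reverse strand, 203 bases before the start. AGATAA, a form bound by GATA factors such as the sheath regulator Gata3, occurred in 4 of 7, against 11.2% of all windows, beginning 194 bases before the start in Krt25, 183 in Krt27, 225 in Krt71 and 182 in Krt73. CTTTGA, bound by Lef1 and Tcf factors, occurred in 1 of 7 (Krt28), against 16.0%. GCCNNNGGC, bound by AP-2 factors, occurred in 1 of 7 (Krt72), against 16.6%. A match is a description of letters and says nothing about binding. The 250 bases before the start of Krt25 (chr11:99322952-99323201), Krt71 (chr15:101743098-101743347) and Krt72 (chr15:101786521-101786770) are shown, the most abundant gene of each type and the one with no exact TATAAA near its start. Variants of that motif were not searched. Capitals mark the motifs, and all run along the minus strand.
Krt25: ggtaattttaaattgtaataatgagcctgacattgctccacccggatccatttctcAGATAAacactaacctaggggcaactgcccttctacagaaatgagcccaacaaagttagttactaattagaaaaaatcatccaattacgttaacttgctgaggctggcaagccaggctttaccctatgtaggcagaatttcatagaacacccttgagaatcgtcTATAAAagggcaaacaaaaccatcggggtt
Krt71: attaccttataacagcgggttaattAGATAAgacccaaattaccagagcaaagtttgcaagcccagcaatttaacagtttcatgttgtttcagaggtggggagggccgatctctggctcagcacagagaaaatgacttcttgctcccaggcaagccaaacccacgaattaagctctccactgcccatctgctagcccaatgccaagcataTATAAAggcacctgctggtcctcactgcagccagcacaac
Krt72: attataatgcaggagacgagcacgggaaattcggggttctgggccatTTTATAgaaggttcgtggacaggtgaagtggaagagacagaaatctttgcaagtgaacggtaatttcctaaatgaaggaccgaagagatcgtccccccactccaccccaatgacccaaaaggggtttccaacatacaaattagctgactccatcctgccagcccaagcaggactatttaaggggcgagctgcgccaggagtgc

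The tables held between 2636804 and 2859653 tags per library. Levels are given as CPM, tags per 1000000 with library sizes scaled by TMM, edgeR's trimmed mean of M values. Of 7 skeletal muscle markers, which mark the thin muscle layer that comes with a whole skin sample, 4 were called higher at day 1 and 5 at day 2 against day 0, and their summed level was 8057, 12406 and 17208 CPM on days 0, 1 and 2. Of all clusters 1.44% and 3.41% were called higher on these days against day 0. Red cell markers, 4 of 5 measured, summed to 1809, 1619 and 140 CPM. Keratinocyte markers, 4 of 4 measured, summed to 11138, 15008 and 14150 CPM, with the defining gene Krt14 at 82.1, 92.6 and 93.7 CPM. Most of the sum was Krt10, at 6339, 9936 and 8441 CPM, and Krt5, at 4712, 4974 and 5606 CPM. The other marker, Krt1, had only 15, 16 and 25 tags, or 5.33, 5.95 and 9.18 CPM. Why Krt14 stood so far below Krt5, and Krt1 so far below Krt10, was not tested. With these gaps unexplained, ranks and ratios between genes describe the tags as counted. The part of these shifts in the keratin results was not tested. In whole skin, fewer cells of a type and less RNA per cell cannot be told apart.

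The 4 type I keratins made up most of the sheath keratin tags. Krt25, which occurs in all layers of the sheath in the human follicle, counted 45778, 63618 and 21484 tags on days 0, 1 and 2, or 16272, 23654 and 7891 CPM. It ranked 2 among all clusters at day 0, 1 at day 1 and 7 at day 2, so the cluster with the most tags in the day 1 library was a sheath keratin. Krt27, of the same layers, counted 18120, 32115 and 11197 tags, or 6441, 11941 and 4113 CPM. Krt28, also of all layers, counted 7208, 9503 and 4370 tags, or 2562, 3533 and 1605 CPM. Krt26, a cuticle keratin in the human follicle, counted 3271, 4814 and 3056 tags, or 1163, 1790 and 1123 CPM. All 4 were highest at day 1, and for Krt26 the day 2 and day 0 counts lay close together.

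The type II keratins followed the same order of days. Krt71, the type II chain of all layers, counted 25497, 36929 and 18488 tags, or 9063, 13731 and 6791 CPM. Krt73, of the human sheath cuticle, counted 3356, 4819 and 2074 tags, or 1193, 1792 and 762 CPM. Krt72, also of the cuticle, counted 161, 342 and 153 tags, or 57.2, 127 and 56.2 CPM, at its upstream sites alone. Together the 7 genes counted 103391, 152140 and 60822 tags, which were 3.78%, 5.32% and 2.31% of all tags in the tables.

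**Figure D1:**
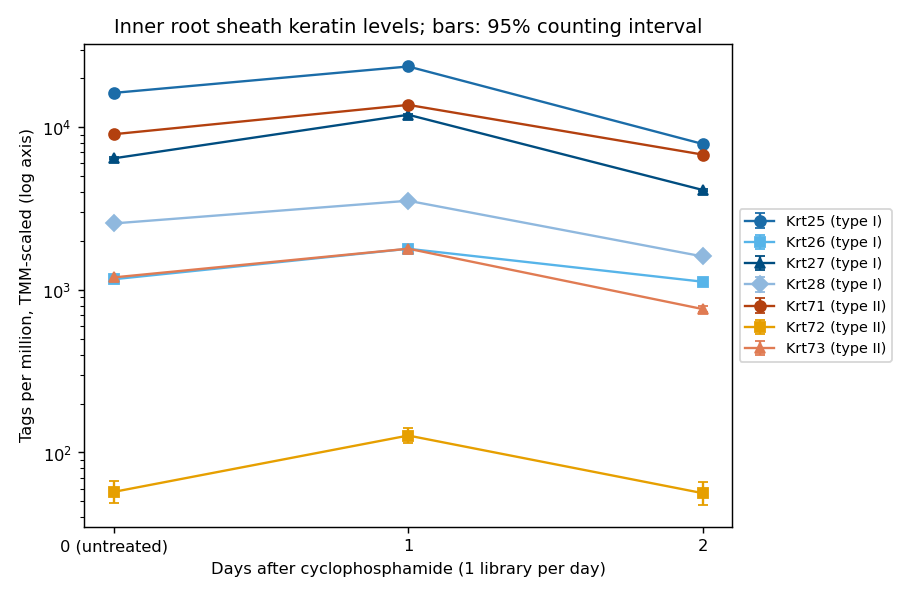
TMM-scaled CPM (log axis) of each keratin against the day after cyclophosphamide, with 1 library per day and bars for the 95% counting interval. Every line is highest at day 1; Krt25 runs from 16272 through 23654 to 7891, and Krt72, counted at upstream sites only, is at 57.2, 127 and 56.2.

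In tags, and leaving out the partial count of Krt72, the order at day 0 was Krt25, Krt71, Krt27, Krt28, Krt73 and Krt26. The neighbours Krt73 and Krt26 did not differ beyond counting error there, at 3.25% (95% interval 3.14 to 3.36) and 3.16% (3.06 to 3.27) of the sheath keratin tags, nor at day 1. At day 2 Krt26 stood above Krt73, at 5.02% (4.85 to 5.20) against 3.41% (3.27 to 3.56). All other neighbours in the order were separated by more than their intervals on each day. Wilson intervals are given for shares, and they and the other intervals cover counting error only, since copies made by PCR are no separate molecules.

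The day 1 and day 0 libraries were compared first. Ratios are log2 of the scaled levels with 0.5 tags added to each count. The tags of a gene in 2 libraries were compared by a 2-sided exact conditional binomial test, Benjamini-Hochberg adjusted over the 13812 clusters with 15 or more tags. Calls needed a change of at least 2-fold with an adjusted p of at most 0.001. Such a test compares libraries and not conditions. Krt72 was called higher, at 1.15 (0.88 to 1.43), adjusted p 3.2e-16 in the exact test. It was read at upstream sites, while the other 6 genes rest on their 3′-most site, so its call sets unlike readings side by side. Upstream sites of other members varied. Some stood as high, with 1.08 and 1.18 at sites 4 and 8 of Krt71 and 1.32 at site 5 of Krt27. Others stood lower, with 0.66 (0.54 to 0.78) at site 2 of Krt71, which matches the leading Krt72 site, and -0.29 at site 4 of Krt73. The part of site position in the call was not tested. Among the members 1 of 7 was called higher and 0 lower, where 1.44% of all clusters were called higher and 1.35% lower.

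The other members moved less but far beyond counting error. Krt27 stood at 0.89 (0.86 to 0.92), Krt26 at 0.62 (0.56 to 0.69), Krt71 at 0.60 (0.58 to 0.62), Krt73 at 0.59 (0.52 to 0.65), Krt25 at 0.54 (0.52 to 0.56) and Krt28 at 0.46 (0.42 to 0.51). All 7 had an adjusted p of 0.001 or less in the higher direction, as had 5.85% of all clusters and 53.7% of the 246 clusters at 500 CPM or more, where small changes pass. The median of the 7 was 0.60, against -0.02 for all clusters tested and 0.21 for the 246 abundant ones. Summed over the genes the ratio was 0.62 (0.61 to 0.63), a 1.54-fold higher level.

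The day 2 and day 0 libraries gave the opposite sign. Krt25 was called lower, at -1.04 (-1.07 to -1.02), or 0.485 of its day 0 level. That is 1 of 7 called lower and 0 higher, where 3.03% of all clusters were called lower and 3.41% higher, and 4.47% of the abundant ones lower. Krt28 stood at -0.67 (-0.73 to -0.62), Krt27 at -0.65 (-0.68 to -0.61), Krt73 at -0.65 (-0.73 to -0.57) and Krt71 at -0.42 (-0.44 to -0.39), short of 2-fold. With Krt25 these made 5 of 7 with an adjusted p of 0.001 or less in the lower direction, against 7.85% of all clusters and 39.4% of the abundant ones.

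The 2 keratins left over are cuticle keratins in the human follicle. Krt26 stood at -0.05 (-0.12 to 0.02, adjusted p 0.34) and Krt72 at -0.03 (-0.36 to 0.30, adjusted p 1) in the exact binomial test. Their intervals include 0, that of Krt72 a wide one. Krt73, also a cuticle keratin, lay with the keratins of all layers instead. The median of the 7 was -0.65, against 0.01 for all clusters tested and -0.01 for the abundant ones, and the summed ratio was -0.72 (-0.73 to -0.70).

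Between days 1 and 2, with no untreated library involved, the ratios were larger. Krt25 fell by 1.58 on the log2 scale (-1.61 to -1.56) and Krt27 by 1.54 (-1.57 to -1.51), each to about 0.33 or 0.34 of its day 1 level. Krt73 fell by 1.23 (-1.31 to -1.16), Krt72 by 1.18 (-1.46 to -0.90), Krt28 by 1.14 (-1.19 to -1.09) and Krt71 by 1.02 (-1.04 to -0.99). These 6 of 7 were called lower and 0 higher, where 1.10% of all clusters were called lower and 1.80% higher, and 4.47% of the 246 abundant clusters were called lower. Krt26 stood at -0.67 (-0.74 to -0.61), short of 2-fold. With it all 7 had an adjusted p of 0.001 or less in the lower direction, as had 5.24% of all clusters and 51.2% of the abundant ones. The median was -1.18, against -0.02 for all clusters and -0.17 for the abundant ones, and the summed ratio was -1.34 (-1.35 to -1.33). The Krt71 call rested on the scaling, since the ratio was -0.90 when scaled by all tags the authors kept and -0.88 when scaled by the tags in the tables. The 3 comparisons share libraries, so their ratios are not independent of each other.

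With 1 library per day, variation between animals was not measured. As a description of what such variation would allow, edgeR's exact test was run with an assumed coefficient of variation of 0.2 and a threshold of 0.05 on its adjusted p, whatever the fold. The fall between days 1 and 2 then passed for Krt25 (adjusted p = 0.03) and Krt27 (adjusted p = 0.043) and for none of the other 5, whose adjusted p ran from 0.21 for Krt73 to 0.89 for Krt26. With that variation none of the 7 passed against day 0. Krt72 at day 1 then had an adjusted p of 0.42, and Krt25 at day 2 one of 0.21.

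**Figure D2:**
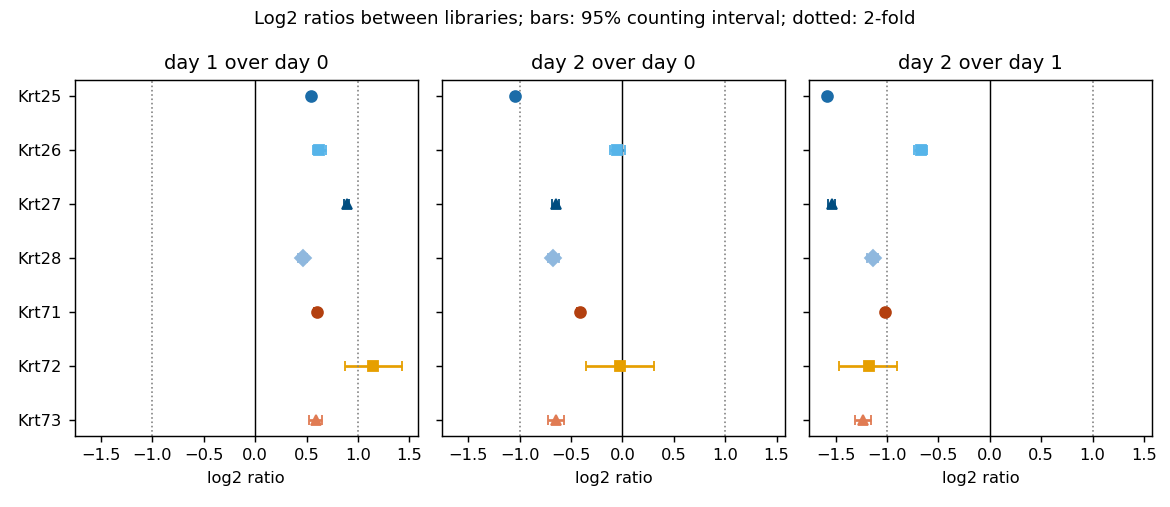
Log2 ratio of each keratin between libraries (horizontal axis, a panel per comparison), with bars for the 95% counting interval and dotted lines at 2-fold. All points lie right of 0 at day 1 over day 0 and left of it at day 2 over day 1, while at day 2 over day 0 Krt26 (-0.05) and Krt72 (-0.03) lie at 0 and Krt25 (-1.04) past the 2-fold line.

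**Figure D3:**
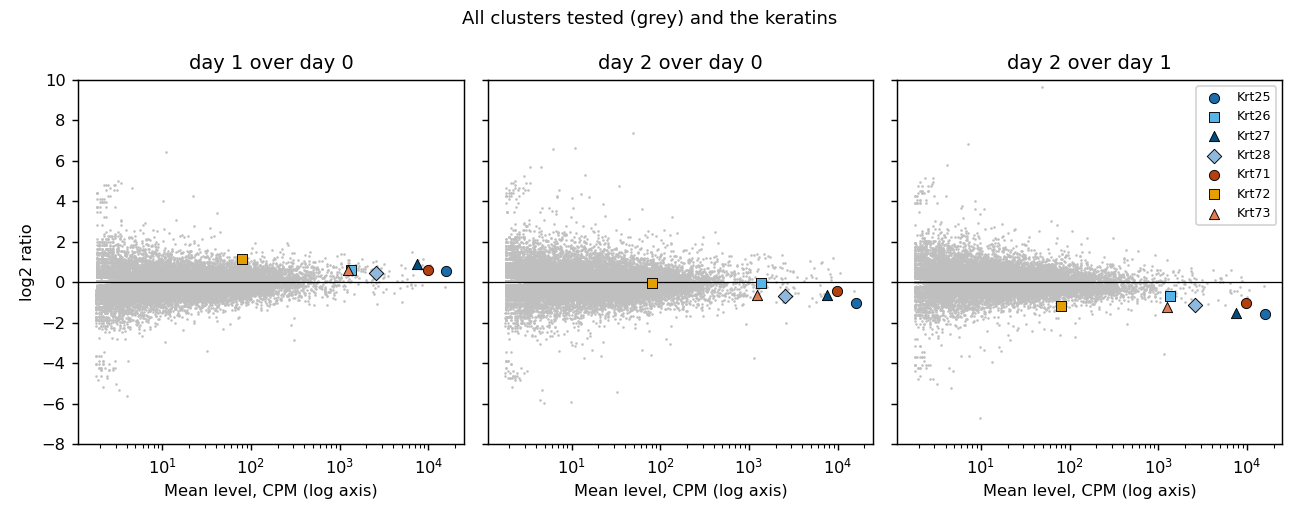
Log2 ratio against the mean CPM (log axis) for all 13812 clusters tested (grey) and the 7 keratins, a panel per comparison. Krt25, Krt27 and Krt71 are among the most abundant clusters, and at day 2 over day 1 all 7 keratins lie below 0, from -0.67 for Krt26 to -1.58 for Krt25.

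The keratins did not move in equal measure. Each pair of genes was compared by Fisher's exact test on its counts in 2 libraries, in 21 pairs and 3 comparisons, with p-values adjusted over the 63 tests; scaling cancels in such a ratio, and pairs with Krt72 set its upstream sites against 3′-most sites. At an adjusted p of 0.001, 13 of 21 pairs differed in day 1 over day 0, 16 of 21 in day 2 over day 0 and 14 of 21 in day 2 over day 1. Among the type I genes Krt27 gained most at day 1, with a ratio above that of Krt25 by 0.35 on the log2 scale (Krt25 over Krt27 -0.35, -0.38 to -0.32, adjusted p 8.9e-106, Fisher's exact test). At day 2 over day 0 Krt25 over Krt26 stood at -0.99 (-1.07 to -0.92), adjusted p 9.7e-145. Krt25 also lost more than its type II counterpart Krt71, at -0.63 (-0.66 to -0.59), adjusted p 1.8e-254.

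Some pairs could not be told apart. At day 2 over day 0, Krt27 over Krt73 stood at -0.0001 (-0.09 to 0.09), Krt27 over Krt28 at 0.03 (-0.04 to 0.09) and Krt28 over Krt73 at -0.03 (-0.12 to 0.07). Krt26 over Krt72 was at -0.02, with an interval of -0.35 to 0.30 that allows a difference of either sign. At day 1 over day 0, Krt71 over Krt73 stood at 0.01 (-0.06 to 0.08) and Krt26 over Krt71 at 0.02 (-0.05 to 0.09).

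The make-up of the keratin pool as counted, with Krt72 in part, also differed between libraries. Krt25 held 44.3% (95% interval 44.0 to 44.6) of the sheath keratin tags at day 0, 41.8% (41.6 to 42.1) at day 1 and 35.3% (34.9 to 35.7) at day 2. Krt71 held 24.7% (24.4 to 24.9), 24.3% (24.1 to 24.5) and 30.4% (30.0 to 30.8). Krt27 was highest at day 1, at 17.5% (17.3 to 17.8), 21.1% (20.9 to 21.3) and 18.4% (18.1 to 18.7). Krt26 went from 3.16% at days 0 and 1 to 5.02% at day 2.

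Since type I and type II chains pair, the ratio of their summed tags was compared. It was 2.56 (95% interval 2.53 to 2.60) type I tags per type II tag at day 0, 2.61 (2.59 to 2.64) at day 1 and 1.94 (1.90 to 1.97) at day 2. The change from day 0 to day 1 was 0.03 on the log2 scale (0.003 to 0.05, p = 0.028, Fisher's exact test), and that from day 0 to day 2 was -0.40 (-0.44 to -0.37, p = 1.2e-142, Fisher's exact test). The type II sum lacks the Krt72 tags of the 3′-most sites, whose number is not known, so these ratios hold for the tags as counted.

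**Figure D4:**
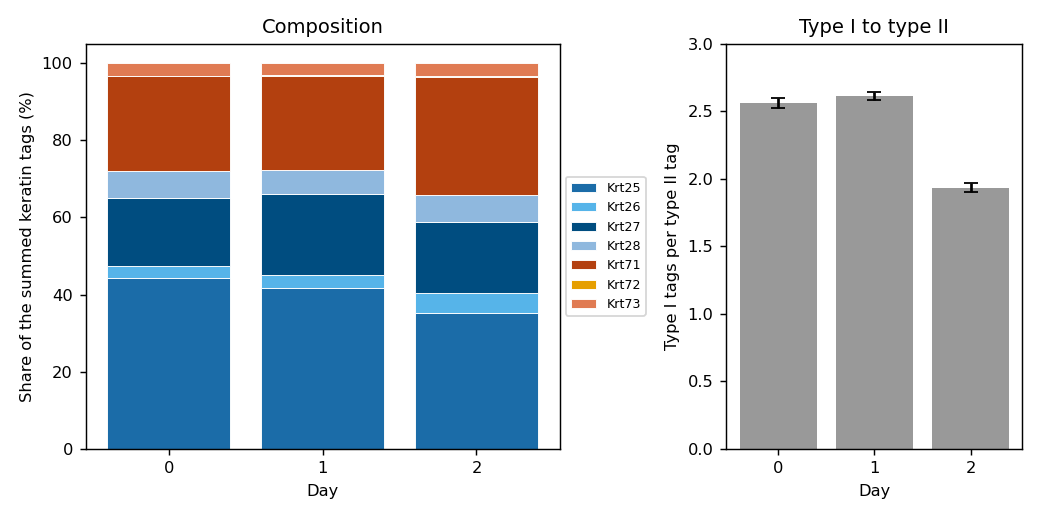
Left, the share of each gene in the summed sheath keratin tags (percent) by day; right, type I tags per type II tag by day, with bars for the 95% counting interval. The Krt25 band shrinks to 35.3% at day 2 while Krt71 widens to 30.4%, and the ratio is 2.56, 2.61 and 1.94.

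The counts at single CATG sites, numbered from the 3′ end as deposited, were a further reading of the same transcripts within each library. There were 38 sites with 20 or more tags over the 3 days. At day 1 over day 0 34 of them had a positive ratio and 4 a negative one, at day 2 over day 0 9 were positive and 29 negative, and at day 2 over day 1 2 were positive and 36 negative. Sites of 1 gene share their transcripts and are not replicates.

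Most tags of a gene came from 1 site. At day 0 the leading site held 97.7% of the Krt25 tags, 92.3% of Krt26, 97.2% of Krt27, 98.6% of Krt28, 92.0% of Krt71, 93.8% of Krt73 and 65.2% of Krt72. The share changed most clearly in Krt71, which is the type II partner of all layers. It was 91.98% at day 0, 90.24% at day 1 and 93.22% at day 2, with adjusted p of 5.5e-13 for day 1 over day 0, 6.1e-06 for day 2 over day 0 and 1.9e-31 for day 2 over day 1 (Fisher's exact test, adjusted over 21 tests). Some Krt71 sites farther from the 3′ end had higher ratios at day 1 than the leading one, which stood at 0.57, while site 5 stood at 0.56 (0.09 to 1.04). Site 4, in coding exon 6, went from 549 to 1108 tags, a ratio of 1.08 (0.93 to 1.23), and site 8, in exon 2, from 344 to 748, a ratio of 1.18 (1.00 to 1.37), before both fell to 368 and 272 tags at day 2.

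Other upstream sites gave the widest ratios of single sites. Site 6 of Krt25, in coding exon 1, had 8, 55 and 12 tags, a ratio of 2.77 (1.77 to 4.13) at day 1, far above the 0.54 of its leading site. These tags were few beside the 44728, 61978 and 20893 at site 1 and hardly touched the gene's level. Krt73 had a leading share of 93.8%, 95.8% and 92.6%, and its change between days 1 and 2 (adjusted p 3.5e-07, Fisher's exact test) was not found with tags of 1 reference gene only (97.4% and 97.2%, adjusted p 0.67), which leaves out the tag shared with Krt79. For Krt72, whose leading tag is itself an upstream one, the ratio at that site was 1.15 (0.81 to 1.50) at day 1 and -0.17 (-0.60 to 0.24) at day 2 over day 0.

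**Figure D5:**
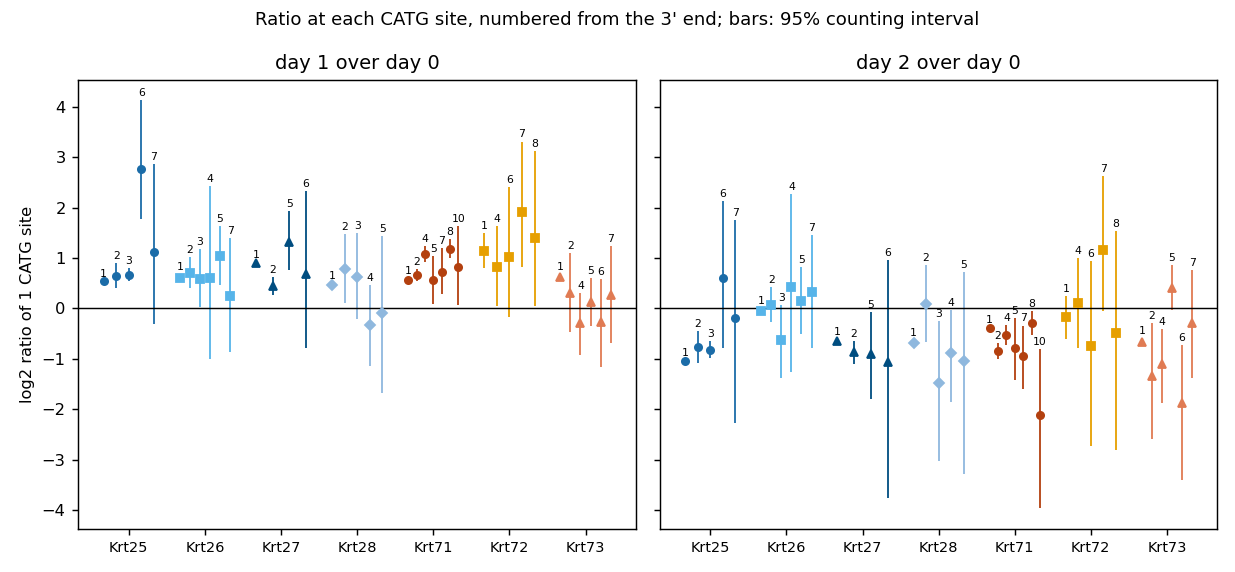
Log2 ratio of the tags at each CATG site with 20 or more tags (sites numbered from the 3′ end above the points) for day 1 and day 2 over day 0, with bars for the 95% counting interval. Most sites lie above 0 at day 1 (34 of 38) and below 0 at day 2 (29 of 38), with site 6 of Krt25 at 2.77.

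Other genes of the sheath and its companion layer were read from a list of 16, all measured, among which several are also used outside the sheath. At day 1 over day 0, 0 of 16 were called, with a median of 0.46. S100a3, a calcium-binding protein of hair cuticle cells, stood at 0.87 (0.84 to 0.90), Tgm1, a crosslinking enzyme, at 0.89 (0.73 to 1.05) and Crnn, a cornified cell protein, at 0.83 (0.56 to 1.10). These 3 had an adjusted p of 0.001 or less in the higher direction in the exact test. So had Krt75, Padi3, Prss53, Tchh, Tgm3 and Tchhl1, and 5.85% of all clusters. Gata3 passed in the lower direction, at -0.49 (-0.62 to -0.36). The trichohyalin gene Tchh, whose protein binds the keratin filaments of the sheath, counted 18337, 19613 and 9150 tags. It was at 0.16 (0.13 to 0.19) at day 1 and at -0.96 (-0.99 to -0.92) at day 2, both against day 0.

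At day 2 over day 0, 1 of the 16 was called higher and 2 lower, with a median of -0.28, where 3.41% of all clusters were called higher and 3.03% lower. The serine protease gene Prss53 fell by 1.08 (-1.46 to -0.71) and the transcription factor Gata3 by 1.07 (-1.22 to -0.92, but -0.63 and not called with tags of the 3′-most site alone), while Tgm5, another crosslinking enzyme, rose by 1.97 (1.08 to 3.07) from 12 to 47 tags. At day 2 over day 1, 6 were called lower and 0 higher, with a median of -0.68, where 1.10% of all clusters were called lower. Of these 6, Tchh (-0.98) and Cux1 (-0.90) were not called when scaled by the tags in the tables, and Crnn (-0.40) not with tags of the 3′-most site alone. Among the 16 the 3 with the widest ratios were Prss53 at -1.78 (-2.15 to -1.43), the peptidylarginine deiminase Padi3 at -1.39 (-1.51 to -1.26) and Tgm1 at -1.34 (-1.52 to -1.16).

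Keratins of other parts of the follicle and skin were read in the same way. Of 15 shaft keratins 12 were measured, with medians of 0.82 at day 1 over day 0, 0.26 at day 2 over day 0 and -0.44 at day 2 over day 1. Krt32, a shaft cuticle keratin, rose by 1.28 (1.20 to 1.37) at day 1, and Krt35, of the early shaft, fell by 2.09 (-2.20 to -1.99) at day 2 over day 0. The counts called were 1 higher and 0 lower at day 1 over day 0, 0 and 2 at day 2 over day 0, and 0 and 2 at day 2 over day 1. Over all clusters 1.44% were called higher and 1.35% lower at day 1 over day 0. The shares were 3.41% and 3.03% at day 2 over day 0, and 1.80% and 1.10% at day 2 over day 1. Of 14 outer root sheath and epidermal keratins 13 were measured, with medians of 0.65, 0.41 and -0.17. In each of the 3 comparisons 1 of the 13 was called higher and 0 lower. Krt16, a keratin of activated epidermis, was called higher against day 0 on both days, at 1.40 (1.21 to 1.59) and 1.22 (1.03 to 1.41). Krt2 was called higher at day 2 over day 1, at 2.27 (1.29 to 3.55) from 9 to 46 tags. Other members of this group fell without a call. Krt77 went from 6795 to 3386 tags at day 2 over day 0, at -0.96 (-1.02 to -0.90). It also stood at -0.96 (-1.02 to -0.90) at day 2 over day 1. Krt78 stood at -0.78 (-1.17 to -0.40) at day 2 over day 0. The sheath keratins had the lowest median of the 3 keratin groups at day 2 over day 0, and no test of the difference between groups was made.

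Regulators of sheath fate were read from a list of 17. Of these, 15 could be tested, and 1, 4 and 2 were called lower in day 1 over day 0, day 2 over day 0 and day 2 over day 1, with 0 higher and medians of -0.31, -0.58 and -0.75. Of all clusters 1.35%, 3.03% and 1.10% were called lower in the same comparisons. Shh, the Hedgehog ligand of the hair matrix, fell by 2.95 (-4.29 to -1.96) at day 1 from 68 to 8 tags. Not all regulators fell, though none was called higher. At day 1 over day 0 Dlx3 stood at 0.60 (0.46 to 0.73) and Bmp2 at 0.74 (0.35 to 1.15). Klf4 stood at -0.85 (-1.02 to -0.69) there, but at 0.76 (0.60 to 0.93) at day 2 over day 1. At day 2 over day 0 Shh fell by 2.19 (-3.18 to -1.39) and Msx2, a homeobox factor of the hair matrix, by 1.14 (-1.28 to -0.99). At day 2 over day 1 Ovol1, a zinc finger factor of differentiating epithelium, fell by 1.12 (-1.36 to -0.90) and Cux1, a homeobox factor of the inner root sheath, by 1.03 (-1.29 to -0.79). Scaled by the tags in the tables these 2 stood at -0.99 and -0.90 and were not called, and Cux1 lost its call under 2 further scalings (-0.92 and -0.95).

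The genes whose pair of ratios, day 1 and day 2 over day 0, lay nearest to that of the summed sheath keratins were sought among 1587 named genes at a mean of 100 CPM or more. The nearest by Euclidean distance was Ovol1, at 0.48 and -0.65, a distance of 0.162. Sfn, which encodes the 14-3-3 sigma protein of epithelia, followed at 0.57 and -0.53, and then Fam83c at 0.64 and -0.52. The keratin gene Krt23 at 0.55 and -0.53 and the argininosuccinate synthase gene Ass1 at 0.63 and -0.51 completed the nearest 5. Likeness over 3 libraries that share the day 0 library is a description only.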

How the data were processed

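Per the labels' protocols, polyadenylated RNA of whole skin was bound to oligo(dT) beads, copied into cDNA, cut with NlaIII and released as tags with MmeI. Per the file headers, the authors deposited a raw count of tags per UniGene cluster, and the count divided by all tags the authors kept gives the deposited TPM, which was used only to recover that total. The sources used here do not give the tool that assigned tags or the build. Tables held 2731787, 2859653 and 2636804 tags of 6030093, 6070058 and 5666060 kept; the smallest listed copy number was 2.

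Tags were matched exactly to sense strands of GENCODE M21 transcripts (GRCm38). Clusters were named after a gene holding 80% or more of their matched tags and 50% or more of all their tags. Counts were scaled by TMM (edgeR 4.0.16). Without replicates edgeR's quasi-likelihood test could not be used, so counts were compared by the exact conditional binomial test in Python 3.11.15 with scipy 1.17.1, checked on simulated data. Ratio intervals are Clopper-Pearson at 95%, those of ratios of ratios Wald. The alternatives were DESeq2 1.42.0 size factors, other totals, tag subsets, filters, pseudocounts and assumed variation.

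The members and lists were chosen with earlier results of these data known. Named genes were all members, in each other list up to 3 with the largest absolute ratio at 20 CPM or more, and the nearest 5 by likeness. Tchh, Krt75, Padi3, Prss53, Tgm3, Tchhl1 and Gata3 at day 1, Tgm5 and Krt2 were named after their values were seen. So were Krt1, Dlx3 at day 1 over day 0 and Klf4 at day 2 over day 1.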

Additional observations from a re-analysis of the deposited data

Results flagged for a closer look

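For 5 of the 7 keratins with a cluster, the ratio to day 0 was positive at day 1 and negative at day 2, with both 95% counting intervals on their own side of 0. The difference between the 2 days, which is the day 2 over day 1 ratio on the log2 scale, was -1.58 for Krt25, -1.54 for Krt27, -1.14 for Krt28, -1.02 for Krt71 and -1.23 for Krt73. These differences follow from the choice of genes with opposite signs and are given as a description. The change of direction was not tested against variation between animals, with 1 library per day.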

How the results depend on the processing

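Over 14 alternatives, 263 of 294 gene-level values kept their direction and side of the threshold, 18 lost the call, 11 gained it and 2 reversed. The tally includes alternatives that could hardly change a label. Summing over all clusters of a gene could not differ, since each member had 1 cluster. The 2 other tag minimums, the pseudocount of 2 tags and the 2-fold rule without the test each left 21 of 21 values the same. Both reversals were Krt72 at day 2 over day 0, from -0.03 to 0.0163 when scaled by all kept tags and to 0.0022 when scaled by tags outside hair and muscle genes, inside its counting interval. Krt71 at day 2 over day 1 lost its call under those scalings (-0.90 and -0.93), when scaled by tags in the tables (-0.88) and with tags of 1 reference gene (-0.996). Krt25 at day 2 over day 0 stayed called under every scaling, the smallest fall being -1.0015 with all kept tags. The cause was not tested.

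Over all clusters the calls numbered 386, 890 and 401 in day 1 over day 0, day 2 over day 0 and day 2 over day 1. At 2-fold without the test they were 1742, 2388 and 1750, and at the adjusted p without a fold minimum 1510, 2086 and 1353. Under assumed variation of 0.2 in edgeR's exact test they were 29, 241 and 90, and at 0.4 they were 0, 6 and 2, none of them a sheath keratin. Scaling by tags in the tables moved the median of all clusters by -0.13 at day 1 over day 0 and 0.13 at day 2 over day 1. It split the calls 128 higher to 338 lower and 371 to 100, against 199 to 187 and 249 to 152; all kept tags gave 156 to 265 and 347 to 106, and tags outside hair and muscle genes 162 to 251 and 314 to 120. The type I to type II ratio from site 1 tags was 2.71, 2.81 and 2.02.

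No paired analysis was possible because each day has 1 library, so no library was left out either. Depth limits Krt72 most, with 153 to 342 tags per library.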

Other observations

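Markers of other cells of whole skin were summed on the same scale, in CPM on days 0, 1 and 2. Hair shaft markers (4 of 5 measured) stood at 4402, 6270 and 4325, and dividing cell markers (5 of 5 measured) at 389, 422 and 443. Fibroblast markers (5 of 5) stood at 2930, 1850 and 3219, and adipocyte markers (4 of 4) at 3786, 2677 and 2029. Macrophage markers (5 of 7) stood at 166, 156 and 328, melanocyte markers (4 of 4) at 129, 246 and 294, of which Pmel alone made 86.4, 201 and 254, and sebaceous markers (4 of 4) at 595, 486 and 754. The sum of the shaft markers at day 2 held opposite moves, with log2 ratios over day 0 of -2.09 for Krt35, 0.57 for Krt86, 0.68 for Krt32 and 0.22 for Krt31. So did other sums. At day 1 over day 0 the dividing cell markers Mki67 (-0.55) and Top2a (-0.46, -1.01 to 0.08) stood below 0 and Cdk1 (0.36) above it. At day 2 over day 0 the fibroblast markers Lum (1.16) and Dcn (0.62) stood above 0 and Col1a2 (-0.45) below it. Of the macrophage sum Mrc1 alone made 57.6, 49.8 and 171 CPM. The part of these shifts in the keratin results was not tested.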
